A study of Petromyzon marinus with 21 samples.

Results

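RPS9 encodes a protein of the small ribosomal subunit and was measured by 1 of the 49 transcript probes of a NanoString panel (43 target probes and 6 probes of the reference class). The member was chosen by its gene name within the class called housekeeping in the deposited table, with its stage pattern already known, so its levels are described without a test. The organism was the sea lamprey, Petromyzon marinus, which belongs to the jawless vertebrates. The panel was read in 18 samples of whole embryos, 3 biological samples from each of 6 stages written as D plus the day after fertilization (1, 2, 2.5, 3, 4 or 5). It was also read in 1 adult testes sample, in 3 technical lanes that count as 1 sample. All embryos developed in dilute Holfretter's solution at one temperature, with no other treatment or mutation given, and total RNA was counted. The column names show 3 runs of the instrument, the first with D1 to D3, the second with D4 and D5, and the third with testes. For 2 of the 3 lanes of D4 and of D5 they give a stage without a sample number, and these are called lanes a and b. The names of D4 lane a and of D5 lanes a and b share a tag whose meaning is not given. In D5 lanes a and b a running number follows that tag. The SDs and SEs below treat these lanes as separate samples, which was not tested. D4 lane b has another tag, also without a given meaning. Whether the tags bear on RPS9 was not tested. The file gives the probe the name RPS9 and no further accession. RefSeq's annotation of the sea lamprey assembly UKy_Petmar_22M1.pri1.0 holds 1 gene of that symbol, a protein-coding gene with 2 transcripts, but the match is by name only.

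Ribosomal protein genes supply the protein part of the ribosome, and their mRNAs are abundant in growing cells. In frogs, the egg is stocked with maternal ribosomes that serve the early embryo, and the embryo's own ribosome production begins later. RPS9 is also in common use as a reference gene, on the premise that its level varies little between samples. The other probes of the class are EF1A_A and EF1A_B, for elongation factor 1 alpha, which carries aminoacyl-tRNA to the ribosome. HCFC-1 is a chromatin-associated co-regulator of transcription in mammals, and Piwi-1 and Piwi-2 belong to a family that silences transposons in germ cells.

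RNA of D5 embryos held far more RPS9 than RNA of D1 embryos. The probe counts barcodes of single molecules without amplification. A scaled count here is a raw count divided by a lane factor, the geometric mean of EF1A_A and HCFC-1, with a mean factor of 1. The positive controls do not enter this factor and serve as an alternative scaling. A lane's background is the mean + 2 SD of its 8 negative controls. The 3 D5 lanes had 4123 (replicate 1), 3292 (lane a) and 3085 (lane b) scaled counts of RPS9, against 20.4, 29.9 and 26.4 in D1 replicates 1, 2 and 3. All D5 lanes lay above all D1 lanes, as did those of 51.2% of the 41 measured probes, among them RPS9. A measured probe is one above background in at least 3 embryo lanes, with EF1A_A and HCFC-1 left out. The means were 3500 ± 549 at D5 and 25.5 ± 4.81 at D1 (SD, n = 3 each), a difference of 7.10 on the log2 scale (SE 0.21), or 138-fold.

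The D1 level was close to the background of the assay. Raw counts at D1 were 17, 14 and 32, against backgrounds of 13.2, 17.9 and 17.8. D1 replicate 2 therefore lay under its background, and the other D1 lanes were 1.29 and 1.79 times theirs. The exact Poisson intervals (95%, counting error only) ran from 9.90 to 27.2, from 7.65 to 23.5 and from 21.9 to 45.2 counts. The D1 mean of 25.5 scaled counts lay within the spread of the D1 background (22.9 ± 13.3 scaled counts, SD, n = 3), and the D5 mean was 153-fold above that background. With the negative control mean subtracted in every lane, D5 exceeded D1 by 7.39 on the log2 scale. The mean taken off here and below is the geometric mean of the negative controls, with a floor of 1 count after subtraction. RPS9 was above background in 17 of 18 embryo lanes, and from D2.5 on by at least 15.5-fold.

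The stage means ran upward in each of the 5 steps, and the lanes of neighbouring stages were separate at the first step and the last. D2 replicates 1, 2 and 3 had 125, 165 and 67.3 scaled counts, with a mean of 119 ± 49.1 (SD, n = 3). All of them lay above the highest D1 lane (29.9), which held for 31.7% of the measured probes. The difference from D1 was 2.14 on the log2 scale (SE 0.42). The raw counts of D2 were 153, 153 and 28, and the 28 of D2 replicate 3 (95% Poisson interval 18.6 to 40.5) is not above the 32 of D1 replicate 3. Those lanes differed in EF1A_A, with 124 raw counts in D2 replicate 3 and 617 in D1 replicate 3, so this separation rests on the scaling. With positive controls only, the lowest D2 lane (33.8 scaled counts) lay under the highest D1 lane (34.5), and the separation held in 5 of 7 scalings.

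D2.5 was the stage with the widest spread on the log2 scale (SD 1.30). Its replicates 1, 2 and 3 had 758, 676 and 152 scaled counts, a mean of 528 ± 329 (SD, n = 3), and replicate 3 lay within the D2 range of 67.3 to 165. The difference from D2 was 1.94 on the log2 scale (SE 0.84), and 2.68 without D2.5 replicate 3. D3 replicates 1, 2 and 3 had 1391, 1233 and 675 scaled counts, a mean of 1100 ± 376 (SD, n = 3). D3 replicate 3 lay at the level of D2.5 replicates 1 and 2, so the lanes of D3 and D2.5 overlapped. The difference from D2.5 was 1.30 on the log2 scale (SE 0.81), and 0.55 without D2.5 replicate 3. Lanes of these stages with the same replicate number deviated together over the measured probes, RPS9 among them (correlations 0.39 to 0.90, across probes). Deviations are from the mean of a stage's 3 lanes, so the 3 correlations are not separate from each other. In the other pairs of stages of the first run these correlations were −0.65 to 0.09. The pairing was thus chosen after seeing the data, and the labels do not state that lanes of the same number belong together. Differences within numbers are therefore a description. Within replicate numbers D3 lay above D2.5 by 0.88, 0.87 and 2.16 on the log2 scale for replicates 1, 2 and 3. A pairing chosen from these data lends no support to the step. Under TMM and DESeq2's size factors, which are set by the target probes, D3 minus D2.5 was −0.36 and −0.19. D2.5 replicate 3 and D3 replicate 3 also had the highest totals of the 43 target probes in the first run, 9961 and 15415 counts, against 504 to 4678 in the other 10 lanes of that run. Whether this bears on RPS9 was not tested.

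D4 replicate 1, lane a and lane b had 1262, 2089 and 1336 scaled counts, a mean of 1562 ± 458 (SD, n = 3). D4 exceeded D3 by 0.53 on the log2 scale (SE 0.40), which is close to the spread between lanes (pooled SD 0.48), and the lanes overlapped. D3 and D4 were read in different runs of the instrument, so stage and run cannot be told apart for this step. D5 lay above D4 by 1.19 on the log2 scale (SE 0.26), with the lowest D5 lane at 3085 and the highest D4 lane at 2089. Complete separation of D5 above D4 was seen for 12.2% of the measured probes. These were RPS9, Piwi-1, Piwi-2, the MAD2L1-binding protein probe comp280581 (spindle checkpoint) and aspartate aminotransferase (comp293586, amino acid metabolism), named after the values were seen, as all 5 of that share. Neither Piwi probe was above background in any D4 lane, and Piwi-2 was above it in 1 of 3 D5 lanes. For RPS9 the separation held in 3 of 7 scalings. With HCFC-1 alone, D5 replicate 1 (2913) lay under D4 lane a (3360). D5 and D1 were read in different runs as well. Within the first run D3 lay 5.38 above D1 on the log2 scale, with a range of 1.31 (TMM) to 5.70 (positive controls only) over the 7 scalings. Within the second run D5 lay 1.19 above D4, with a range of 0.84 (HCFC-1 alone) to 1.54 (EF1A_A alone).

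**Figure D1:**
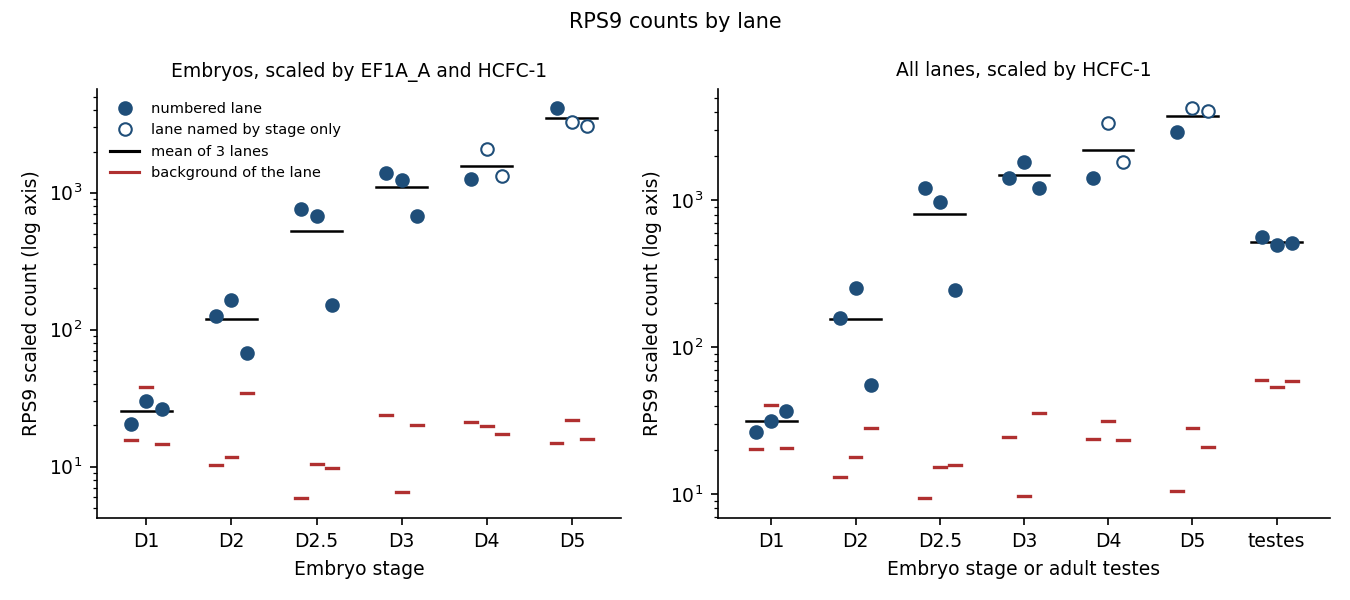
RPS9 scaled counts on a log axis, 1 point per lane (filled, numbered lane; open, lane named by stage only), black line the mean of 3 lanes, red line the background of each lane. Left, embryo lanes scaled by EF1A_A and HCFC-1, from 20.4 at D1 to 4123 at D5; right, all 21 lanes scaled by HCFC-1 alone, with the 3 testes lanes between 497 and 559.

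The size of the difference depended on what the lanes were scaled to, whereas its direction did not. D5 lanes lay above all D1 lanes in each of 7 scalings. D5 exceeded D1 by 7.33 on the log2 scale with EF1A_A alone, 6.88 with HCFC-1 alone and 7.29 with positive controls only. With the sum of the target probes it was 5.49, and with TMM and DESeq2's size factors 3.60 and 3.90. The last 3 take the target probes as the standard. On the scaling by EF1A_A and HCFC-1 the 40 other measured probes had a median D5 minus D1 difference of 2.97 themselves.

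**Figure D2:**
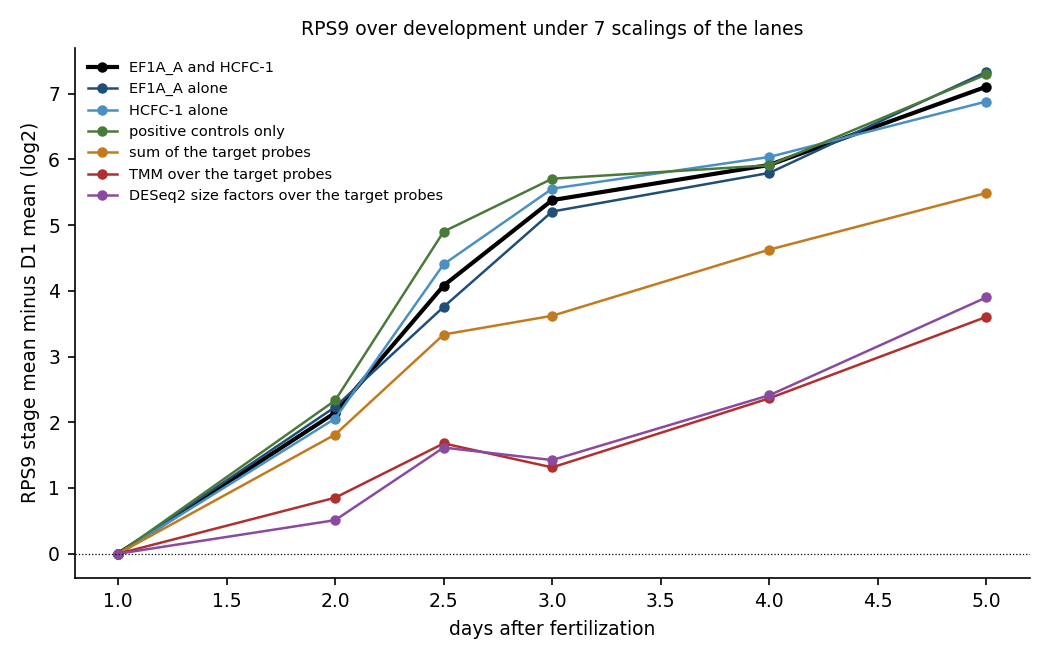
Mean log2 RPS9 of each stage minus that of D1, against days after fertilization, 1 line per scaling of the lanes (each point the mean of 3 lanes). The 4 scalings that use reference probes or positive controls end between 6.88 and 7.33 at D5, and the 3 that use the target probes between 3.60 and 5.49, with D3 under D2.5 for TMM and DESeq2's size factors.

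Relative to its fellow reference probes, RPS9 was low at D1 and high at D5. RPS9 itself was close to background at D1, and under it in D1 replicate 2, so all D1 ratios and differences from them are limited by that background. A ratio of 2 raw counts of the same lane needs no scaling, although probes differ in efficiency, so its size is no ratio of molecules and only its course over lanes is read. Log2 differences of the ratio to EF1A_A or HCFC-1 equal, by construction, those of the scaling by that probe alone. The main scaling is built from the same probes, so these values are no separate support for each other. Per count of EF1A_A there were 15.9, 7.02 and 6.43 counts of RPS9 in D5 replicate 1, lane a and lane b, against 0.043, 0.077 and 0.052 in D1 replicates 1, 2 and 3. EF1A_A thus gave more counts than RPS9 in every D1 lane and fewer in every D5 lane, and the difference was 7.33 on the log2 scale (SE 0.49). The lane values between those stages were 0.27, 0.29 and 0.23 at D2 and 1.30, 1.28 and 0.26 at D2.5. They were 3.72, 2.26 and 1.03 at D3 and 3.08, 3.55 and 2.69 at D4. The D2.5 replicate 3 value of 0.26 again lay inside the D2 range, and D5 lay above D4 with no overlap.

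Per count of HCFC-1 the order of stages was the same, with a smaller gap at the end. D5 replicate 1, lane a and lane b had 39.1, 56.7 and 54.3 counts of RPS9 per count of HCFC-1, against 0.354, 0.424 and 0.492 in the D1 lanes, a difference of 6.88 on the log2 scale (SE 0.22). Means at D2, D2.5, D3 and D4 were 2.09 ± 1.33, 10.9 ± 6.74, 20.0 ± 4.30 and 29.5 ± 13.8 (SD, n = 3 each). D4 lane a (45.1) exceeded D5 replicate 1, whose HCFC-1 count of 141 was the highest of the embryo lanes (33 to 141).

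The Piwi probes and EF1A_B served less well as a measure, being near background for much of development. Piwi-1 was above background in 10 of 18 embryo lanes and Piwi-2 in 8 of 18, neither of them in any D3 or D4 lane. RPS9 per count of Piwi-1 was 134 ± 23.3 at D5 and 0.664 ± 0.274 at D1 (SD, n = 3 each), where 3 of 3 and 2 of 3 Piwi-1 values were above background. Per count of Piwi-2 it was 201 ± 92.2 at D5, where 1 of 3 Piwi-2 values was above background, and 0.459 ± 0.0893 at D1, where all 3 were. EF1A_B was above background in 0 of 18 embryo lanes, at 1 to 8 raw counts, so no ratio to it is given for embryos. Of the 3 probes for the translation machinery on the panel, 1 (RPS9) had D5 lanes all above D1 lanes, EF1A_A overlapped between those stages, and EF1A_B was below background at both. Those comparisons of lanes are on the scale of the positive controls, where the D5 and D1 means of EF1A_A were 372 ± 72.0 and 439 ± 253 (SD, n = 3 each). The share over all measured probes was not taken on that scale. On the scaling by EF1A_A and HCFC-1 it was 51.2% of 41, so the count says nothing particular to translation probes.

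**Figure D3:**
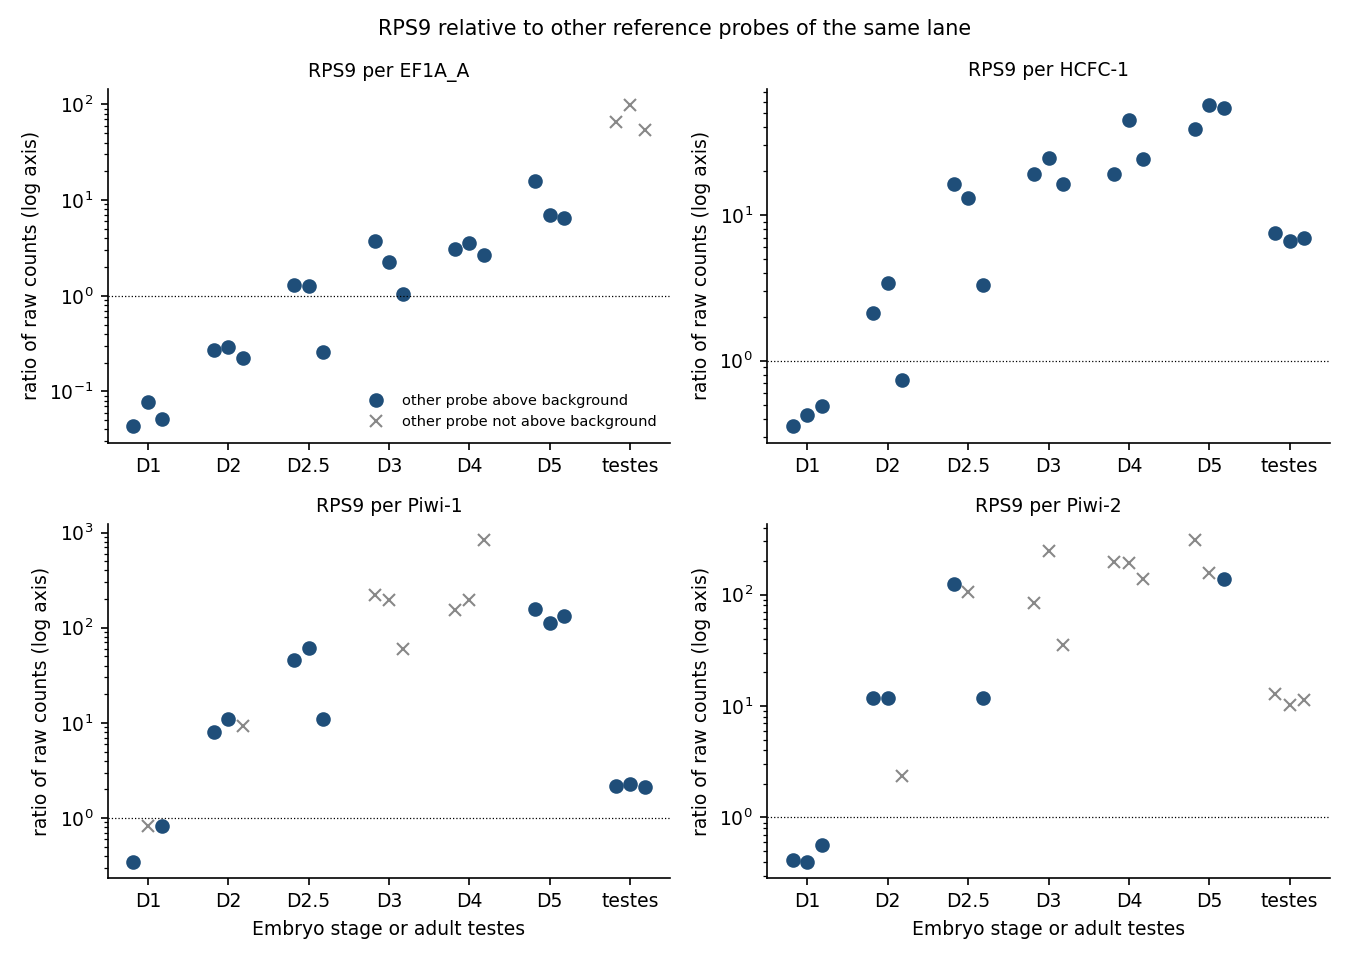
RPS9 counts per count of EF1A_A, HCFC-1, Piwi-1 and Piwi-2 in the same lane, log axes, 1 mark per lane at each embryo stage and for testes; crosses are lanes in which the other probe was not above background, and the dotted line is a ratio of 1. RPS9 per EF1A_A lies under 0.1 in the 3 D1 lanes and over 6 in the 3 D5 lanes. The marks do not show whether RPS9 itself was above background, which it was not in D1 replicate 2.

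The scaling probes themselves varied between lanes, and a stage effect on them was not shown. Scaled by positive controls, EF1A_A stage means on the log2 scale differed by at most 1.18, between D2.5 (highest) and D5 (lowest). For HCFC-1 the range was 0.62, between D2.5 and D4, and for their ratio 1.10, between D2.5 and D5. Permutation tests over the 18 lanes with 6 stages (100000 resamples of the between-stage sum of squares) gave p = 0.498, 0.686 and 0.499, and an adjusted p of 0.686 for each over the 3 tests (permutation). These tests use no RPS9 value. They do not show that the scaling probes were constant, and lanes within a stage differed widely, with 167 counts of EF1A_A scaled by positive controls in D1 replicate 2 and 665 in D1 replicate 3. The largest range of stage means among the 3 measures was 1.18, for EF1A_A scaled by positive controls. On that same scale the D5 mean of RPS9 lay 7.29 above its D1 mean, against 7.10 when scaled by EF1A_A and HCFC-1.

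**Figure D4:**
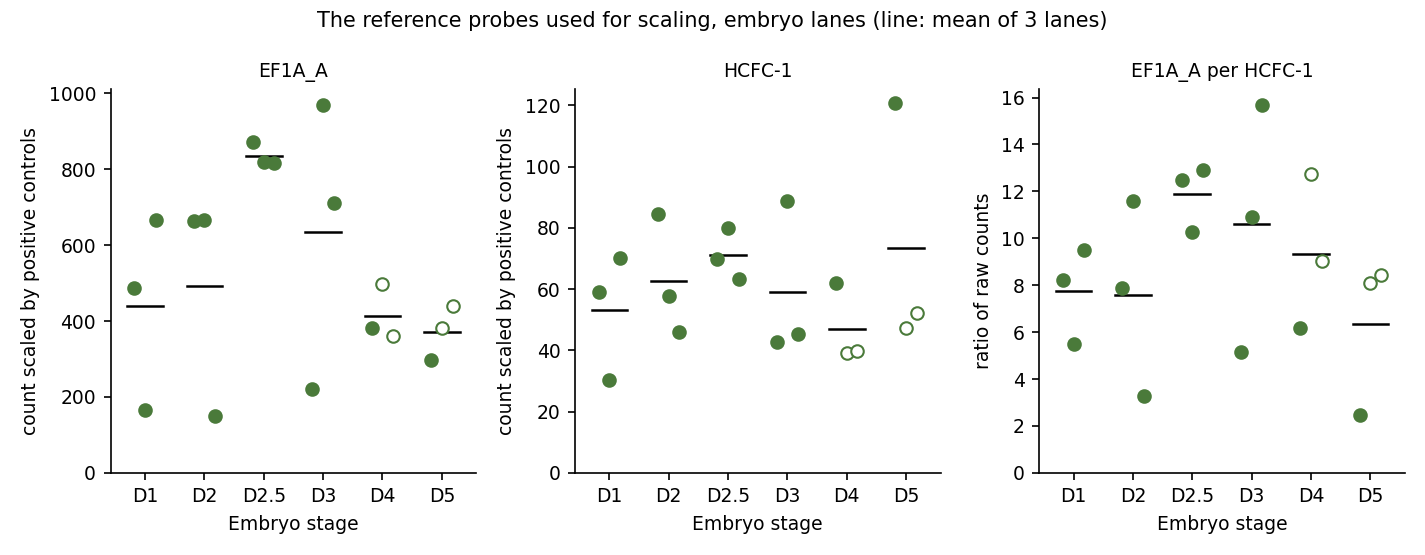
EF1A_A and HCFC-1 counts scaled by positive controls, and their ratio of raw counts, for the 18 embryo lanes (filled, numbered; open, named by stage only; line, mean of 3 lanes). EF1A_A stage means lie between 372 at D5 and 836 at D2.5, and those of HCFC-1 between 47.0 at D4 and 73.3 at D5.

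RPS9 had a wide course over the stages, and its spread between lanes was smaller than that of most other measured probes. Its highest and lowest stage means differed by 7.10 on the log2 scale, against a median of 3.66 over the 40 other measured probes (range 1.03 to 7.30). The SD between lanes of a stage was 0.67 for RPS9, with a median of 1.65 over the others (range 0.39 to 2.14). The unannotated probes comp293992 and comp292315 had wider ranges of stage means, 7.30 and 7.27, with SDs between lanes of 2.14 and 2.09. The probes with a smaller SD than RPS9 were aspartate aminotransferase (comp293586), Piwi-2 and the MAD2L1-binding protein probe (comp280581), with stage ranges of 1.03, 2.81 and 1.41. Piwi-1 was close to RPS9, with an SD of 0.72. Of the 40 others, 31 were above background in no D1 lane, so their SDs take in values at the floor of the assay. Whether this bears on the median SD was not tested. The spread of RPS9 was widest at D2.5 (SD 1.30, log2) and smallest at D5 (0.22) and D1 (0.28). The D1 counts of RPS9 were close to background, so the D1 value is no measure of how RPS9 itself varied. Neither of the unannotated probes was above background in any D1 lane, so their ranges and that of RPS9 start at the floor of the assay and have no order. Without D3 replicate 3, the lane of highest target total among the embryos, the widest range among the others was 6.53 and their median SD 1.52. Without D2.5 replicate 3 as well, the SD was 0.35 for RPS9, with a median of 1.30 over the others. These probes were named after their values were seen, and no test is attached.

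**Figure D5:**
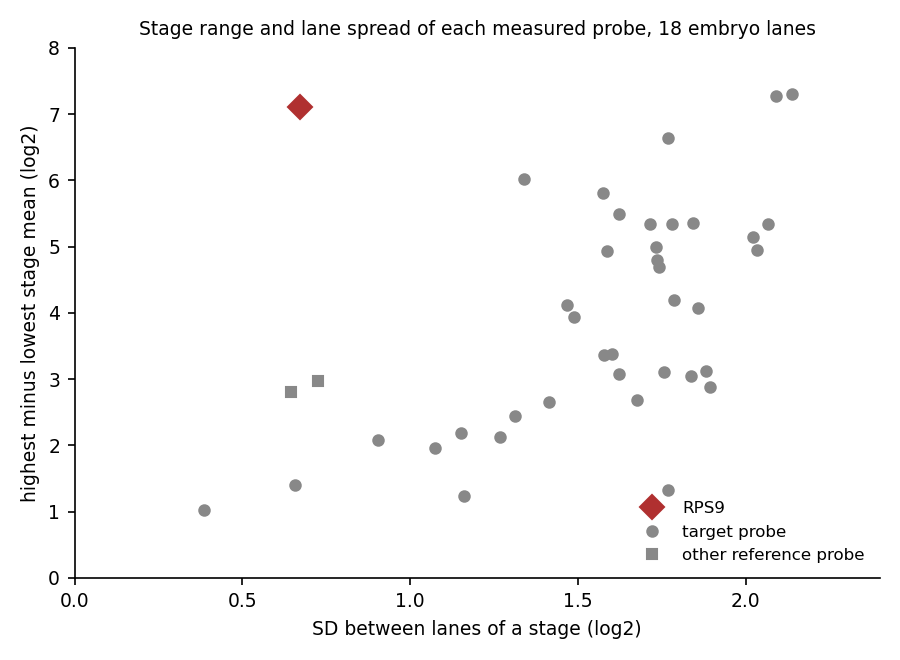
Each measured probe of the 18 embryo lanes, by the SD between lanes of a stage (x, log2) and the difference between its highest and lowest stage mean (y, log2). RPS9 (diamond) lies at 0.67 and 7.10; the 40 other probes lie between 0.39 and 2.14 on x and between 1.03 and 7.30 on y.

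RPS9 was highest at D5, whereas the stage at which most other probes were highest depended on 1 lane. Of the 40 other measured probes, 3 had their highest stage mean at D1, 32 at D3, 2 at D4 and 3 at D5. Without D3 replicate 3, whose target total was 15415 counts against 1545 and 4678 in D3 replicates 1 and 2, the numbers were 3 at D1, 2 at D3, 26 at D4 and 9 at D5. RPS9 was highest at D5 with and without that lane. The 3 highest at D5 in all lanes, named after their values were seen, were aspartate aminotransferase (comp293586), the MAD2L1-binding protein probe comp280581 and the unannotated comp279056. Their D5 minus D1 differences were 0.53, 1.41 and 2.07 on the log2 scale. The D5 minus D1 differences of the 40 others reached 6.39, but 31 of them were above background in no D1 lane. Their differences are limited by the floor of the assay, as is that of RPS9, and give no order. In the 9 others with at least 1 D1 lane above background, the highest difference was 2.41. Choosing probes by their D1 counts bears on this difference, so it gives no order against RPS9 either. None of the 40 had means that went up in all 5 steps, as those of RPS9 did, but 6 did without D3 replicate 3.

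The course of RPS9 from lane to lane was matched in part by some target probes. Spearman's rho with RPS9 over the 18 embryo lanes, on scaled counts, had a median of 0.49 over the 40 other probes. The lanes share their factors and their stages, so these values are a description. The nearest were the unannotated comp231524, comp293073_4 and comp293931, with rho 0.65, 0.64 and 0.63 and Pearson's r on the log2 scale of 0.70, 0.63 and 0.61. All 3 had their highest mean at D3, but without D3 replicate 3 comp231524 was highest at D4 and the other two at D5. comp231524 had 1.79 ± 0.84 scaled counts at D1, 112 ± 137 at D3 and 71.5 ± 54.9 at D5 (SD, n = 3 each), and was below background in every D1 lane. The probe most opposed to RPS9 was comp292635_9, for the synaptonemal complex protein SYCP1, which joins paired chromosomes in meiosis. Its rho was −0.67 and its r −0.74, with 41.9 ± 26.1 scaled counts at D5 and 211 ± 155 at D1 (SD, n = 3 each). Another SYCP1 probe, comp292635, did not share this course, with rho −0.10 and r −0.07. It had 35.0 ± 27.8 scaled counts at D5 and 33.6 ± 29.4 at D1 (SD, n = 3 each).

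In testes RPS9 was present but at a lower level relative to HCFC-1 than in D3, D4 or D5 embryos. The 3 technical lanes had raw counts of 1255, 1182 and 1188, with backgrounds of 134, 127 and 136. Their SD of 40.5 around a mean of 1208 is close to the 34.8 that counting error alone gives. Scaled by HCFC-1 over all 21 lanes, they had 559, 497 and 514 counts, against 2913, 4222 and 4044 in D5 replicate 1, lane a and lane b. The testes lanes lay below every D5 lane, as they did for 6.38% of the 47 probes above background in at least 3 embryo lanes or all testes lanes. These were RPS9, aspartate aminotransferase (comp293586) and EF1A_A, named after the values were seen. The testes level was 2.81 on the log2 scale under that of D5, which was 7.03-fold higher. HCFC-1 itself was close to background in testes, with 167, 177 and 172 raw counts in the 3 lanes, or 1.25 to 1.39 times background, against 1.85 to 7.97 times in embryo lanes. With the negative control mean subtracted, testes lay 2.44 under D5 on the log2 scale. With 1 biological testes sample no test is possible.

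On this scale the testes level lay among the levels of younger embryos. Testes lay above every D2 and D1 lane, by 2.01 and 4.06 on the log2 scale. They lay within the D2.5 range of 245 to 1206 counts scaled by HCFC-1, with a difference of −0.34. They lay below every D3 and D4 lane, with differences of −1.49 and −1.97. The order from low to high was thus D1, D2, testes and D2.5, D3, D4 and D5. Testes and D2.5 overlapped, as did D2.5 with D2 (up to 253), D4 with D3 and D5 with D4. The lowest D3 lane (1207) lay just above the highest D2.5 lane (1206). With the negative control mean subtracted, testes still lay above all D2 lanes, within the D2.5 range (a difference of 0.06) and below all D3, D4 and D5 lanes.

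The testes comparison depended on the reference probe, to the point of changing direction. EF1A_A was not above background in any testes lane (12 to 22 raw counts), and EF1A_B was above it in all 3 (180 to 240), the reverse of the embryos. Per count of EF1A_A, RPS9 was 54 to 98.5 in testes and 6.43 to 15.9 at D5, which places testes above D5 by 2.98 on the log2 scale against a denominator below its background. Scaled by positive controls, which use no transcript, testes averaged 903 counts and D5 3410 ± 1144 (SD, n = 3), a log2 difference of −1.87. Relative to Piwi-1, RPS9 was 2.10 to 2.27 in testes and 111 to 158 at D5. Testes and embryos were read in different runs, so tissue and run cannot be told apart, and in bulk RNA fewer expressing cells cannot be told apart from less RNA per cell.

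Of 6 germ cell probes on the panel, 5 were above background in every testes lane, as were 93.9% of all 49 transcript probes, so the count says nothing particular to germ cell probes. They were the 3 SYCP1 probes (comp288706, comp292635 and comp292635_9), the meiotic helicase HFM1 (comp293440, 5815 to 6015 raw counts) and Piwi-1, whereas Piwi-2 was not above background in any testes lane. The target total was 450972 to 473907 counts in the testes lanes and 504 to 15415 in embryo lanes. Backgrounds were 127 to 136 raw counts in testes and 7.78 to 23.2 in embryos. The panel has no markers for cell types of the embryo.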

How the data were processed

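Raw nCounter counts per probe and lane were used as deposited by the authors, per the file headers: whole numbers, lowest 1. The authors also deposited normalized signal values, whose software is not given in the sources used here. For RPS9 these signal values were recovered from the raw counts within 0.101% in 17 of 17 numbered lanes by taking off the negative controls' geometric mean and scaling to the sum of EF1A_A and EF1A_B; they served as an alternative. Column names give a sample for 17 lanes and a stage only for 4 (D4 and D5 lanes a and b), and show 3 runs: D1 to D3 (12 lanes), D4 and D5 (6) and testes (3). Raw counts of embryo lanes were divided by a lane factor taken from EF1A_A and HCFC-1 together (geometric mean). Comparisons with testes used a factor from HCFC-1 alone. Positive controls entered neither factor and gave an alternative scaling. log2 differences are of mean log2 scaled counts, SE over lanes. Permutation tests of the scaling probes were adjusted by Benjamini-Hochberg over 3 tests. Correlations of deviations from stage means between same-numbered lanes of the first run were all over 0.1 for 1 of 6 pairs of stages (D3 with D2.5), so differences within numbers are given there; this was added after seeing the data. The code was tested on simulated data. TMM and size factors came from edgeR 4.0.16 and DESeq2 1.42.0 over 38 target probes (R 4.3.3); the rest used Python 3.11.15 and scipy 1.17.1. RPS9, its comparisons and all lists were chosen with earlier results of these data known. Named probes are RPS9, the reference class, and the 3 nearest and 1 farthest by Spearman's rho; others are said to be named after their values were seen.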

Additional observations from a re-analysis of the deposited data

How the results depend on the processing

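D5 minus D1 for RPS9 stayed positive throughout, at 7.10 on the log2 scale and 6.95 to 7.23 with any 1 lane left out. It was 7.39 with the negative control mean subtracted, 7.63 on the deposited signal, 5.49 with the sum of the target probes, 3.60 (TMM) and 3.90 (DESeq2's size factors). D2 minus D1 was 0.85 (TMM) and 0.51 (DESeq2's size factors), and D2.5 minus D2 was 0.83 (TMM). D3 minus D2.5 turned to −0.36 (TMM) and −0.19 (DESeq2's size factors) and was 0.28 with the sum of the target probes; without single lanes it was 0.55 to 1.71. D4 minus D3 was 1.05 with TMM. D5 minus D4 was 1.54 with EF1A_A alone, 0.84 with HCFC-1 alone and 0.86 with the sum of the target probes. On the deposited signal it was 1.54. In the numbered lanes alone, which leave 1 lane for D4 and 1 for D5, it was 1.71. That setting and the omission of D2.5 replicate 3 with D3 replicate 3 were chosen after seeing the data. With the omission D2.5 minus D2 was 2.68, D3 minus D2.5 was 0.87 and D4 minus D3 was 0.22. The spreads between lanes of these steps include the omitted lanes, so they cannot show whether the changes are small. Testes minus D5 turned to 2.98 with EF1A_A alone and was −1.87 with positive controls only, −8.06 with the sum of the target probes, −2.44 with the negative control mean subtracted and −0.25 on the deposited signal. With that mean subtracted, the D5 minus D1 ratio to HCFC-1 was 7.15 and to Piwi-2 9.20. The causes were not tested; TMM, size factors and the sum take the target probes as the standard by construction. With HCFC-1 alone the number of probes with all lanes above the earlier stage was 8 in place of 13 for D2, 1 in place of 0 for D3 and 1 in place of 5 for D5 above D4. For D5 above D1 the number was 14 with HCFC-1 alone and 29 with EF1A_A alone, in place of 21. None of the 3 scaling probe tests passed in the alternatives run (adjusted p 0.412 to 0.828 without single lanes, permutation). Without D3 replicate 3, the number of other probes highest at D3 was 2 in place of 32, also chosen after seeing the data. With the number as a replicate block in the first run (12 lanes, exact permutation), adjusted p was 0.773 for each of the 3 tests. The alternatives for the ratio to EF1A_B were not run, as it was below background in every embryo lane. Closeness to background limits D1, where RPS9 had 14 to 32 raw counts.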

Other observations

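The authors' deposited signal, which is tied to the sum of the EF1A probes, gives RPS9 at 16.2 to 28.0 at D1, 93.3 to 133 at D2, 115 to 596 at D2.5, 472 to 1714 at D3, 1239 to 1632 at D4 and 2961 to 7363 at D5 (3 samples each). The testes lanes had 2899, 3505 and 4131 on that scale, against 2961 to 7363 at D5. Testes and D5 thus overlapped there, unlike on the HCFC-1 scale. In embryo columns that sum is almost all EF1A_A, and in testes columns almost all EF1A_B (455 to 456 of 458 to 459), so the deposited testes values and the deposited embryo values of RPS9 stand on different probes.

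D2.5 replicate 3 had RPS9 within the D2 range per count of EF1A_A and per count of HCFC-1. The ratios were 0.256 and 3.30 in that lane, against 0.226 to 0.294 and 0.737 to 3.40 in the D2 lanes. Per count of Piwi-1 it was 11.1, against 8.05 and 10.9 in D2 replicates 1 and 2, and per count of Piwi-2 11.7, against 11.8 in each of them. Neither Piwi probe was above background in D2 replicate 3. D2.5 replicates 1 and 2 had 1.30 and 1.28 per EF1A_A, and 16.2 and 13.1 per HCFC-1. The target total of replicate 3 was 9961 counts, against 2558 and 2249 in replicates 1 and 2, so the lane was low in RPS9 and high in the target panel at once. Over the 18 embryo lanes the raw RPS9 count and the target total had Spearman's rho 0.54 (Pearson's r 0.58, log2). This is a description, as stage was not taken out of it and its cause was not tested.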
